A study of Mus musculus with 6 samples.

Results

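The triglyceride synthesis and glyceroneogenesis genes were examined in inguinal white adipose tissue (IWAT), the subcutaneous fat pad of the mouse groin. They are the 10 genes *Pck1*, *Gpd1*, *Gk*, *Gpam*, *Gpat3*, *Gpat4*, *Agpat2*, *Lpin1*, *Dgat1*, and *Dgat2*. The genes were chosen by name for their enzymatic roles, with earlier results of these data known. Each was found once among the 55491 genes of the deposited table. Bulk RNA-seq covered IWAT of 4-week-old male C57BL/6J mice, 3 *Ebf2+/+* and 3 *Ebf2E165X/+*, with 1 library per mouse. *Ebf2E165X/+* mice carry 1 knock-in allele with a stop codon in *Ebf2*, which encodes early B cell factor 2, a transcription factor of adipocyte precursors and thermogenic adipocytes. The allele was made by genome editing and is present in all tissues, so that differences in IWAT need not arise in the adipocyte, and the labels name no treatment for either genotype. The comparison addresses how the machinery that stores fatty acids as triglyceride was expressed in IWAT of these mice.

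Triglyceride is built on glycerol 3-phosphate. White adipocytes make this backbone from glucose through glycerol 3-phosphate dehydrogenase (*Gpd1*) or from pyruvate and lactate by glyceroneogenesis, in which phosphoenolpyruvate carboxykinase (*Pck1*) is the committed enzyme, and they use little free glycerol because glycerol kinase (*Gk*) is scarce in white fat. Glycerol 3-phosphate acyltransferases (*Gpam*, *Gpat3*, *Gpat4*) add the first acyl chain, *Agpat2* adds the second to give phosphatidic acid, lipin 1 (*Lpin1*) removes the phosphate to give diacylglycerol, and the diacylglycerol acyltransferases (*Dgat1*, *Dgat2*) add the last chain.

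The acyltransferases of the first and second steps share a short catalytic signature, a histidine and an aspartate with 4 residues between them. Only the coding sequences of the 4 genes below (GENCODE M21, GRCm38) were searched for it, and each held it. The stretches are shown because they mark the chemistry that these genes have in common, with the codons of the histidine, a serine, and the aspartate in capitals.
Gpam: ccggtgCACagaTCCcacattGACtacctg
Gpat3: gccaatCACaccTCTcccattGATgtccta
Gpat4: gctaacCATacaTCCcccattGATgtgatc
Agpat2: tctaatCACcagAGCatcctgGACatgatg

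The signature begins at residue 230 of 827 in *Gpam* (chr19:55087468-55087497, minus strand), 229 of 438 in *Gpat3* (chr5:100885960-100885989, plus strand), 248 of 456 in *Gpat4* (chr8:23180663-23180692, minus strand), and 98 of 278 in *Agpat2* (chr2:26597205-26597234, minus strand). In *Gpam* the same letters matched a second time, at residue 548. *Lpin1*, a phosphatase, carries a different signature of 2 aspartates and a threonine, whose codons are in capitals, at residues 712 to 716 of 924 (chr12:16547488-16547514, minus strand).
Lpin1: atctcaGATatcGATgggACCatcaca

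Libraries held 106820505 to 135039488 counts and their depth overlapped between genotypes (exact permutation test, *P* = 0.9, where 3 libraries per genotype cannot give less than 0.1). Counts are given as CPM, counts relative to library sizes scaled by TMM, a method that sets the bulk of the genes equal between libraries. *Ebf2* itself was at 38.3, 41.3, and 37.2 CPM in *Ebf2+/+* and at 22.8, 22.9, and 21.1 CPM in *Ebf2E165X/+* libraries, a log2 fold change of −0.81 (SE 0.076, edgeR adjusted *P* = 0.0596). *Ebf2* thus did not overlap between genotypes. A stop codon need not change the RNA level, so this value is no check of the genotype labels, and the edited base itself was not analysed here. The third *Ebf2E165X/+* library carried skeletal muscle RNA, with 3.54% of its counts in 8 muscle markers against 0.0670% to 0.642% in the others. Among the 10 genes, 5 were highest of all 6 libraries in the first *Ebf2+/+* library.

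Adipocyte RNA was followed with 12 adipocyte markers, all with counts in every library and led by *Fabp4*. Of all counts they took 1.84%, 2.06%, and 1.75% in *Ebf2+/+* and 1.93%, 1.85%, and 1.16% in *Ebf2E165X/+* libraries. The third *Ebf2E165X/+* library was the low one, and the genotypes otherwise overlapped (exact permutation test, *P* = 0.6, adjusted over 13 lists 0.867). As a mean of log2 CPM over the 12 genes the *Ebf2E165X/+* libraries differed from *Ebf2+/+* by −0.29, and on that measure each of them lay below each *Ebf2+/+* library (exact permutation test, *P* = 0.1, the smallest it can give). In bulk tissue fewer adipocytes and less of these RNAs per adipocyte cannot be told apart. Thermogenic adipocyte markers, 8 genes led by *Cidea*, took 0.0175% to 0.0251% in *Ebf2+/+* and 0.00480% to 0.0150% in *Ebf2E165X/+* libraries, without overlap (exact permutation test, *P* = 0.1, adjusted 0.433). The highest of the *Ebf2E165X/+* values was that of the library with muscle RNA, where *Cpt1b* was at 71.6 CPM and *Cox7a1* at 21.7 CPM. *Cidea*, a lipid droplet protein, was called in edgeR (log2 fold change −3.24, SE 0.20, adjusted *P* = 0.0046). With each library left out its log2 fold change was −3.46 to −3.09. The highest edgeR adjusted *P* among those fits was 0.0565, so that leaving out 1 library ended the call at a similar fold change. *Ucp1*, the uncoupling protein, had a log2 fold change of −5.83 (SE 0.55, edgeR adjusted *P* = 0.0596), and DESeq2 gave it an adjusted *P* of 4.9e-18. Of the other 10 lists, B cell markers took 0.0296% to 0.0496% in *Ebf2+/+* and 0.0508% to 0.0617% in *Ebf2E165X/+* libraries, and mast cell markers 0.00788% to 0.0103% and 0.0117% to 0.0126% (exact permutation test, *P* = 0.1, adjusted 0.433, for both). The progenitor and fibroblast, endothelial, macrophage, T cell, epithelial, erythroid, Schwann cell, and liver and kidney lists gave *P* values of 0.2 to 0.9 in the same exact test. Liver and kidney, which also use *Pck1* and *Gk*, were represented by 6 markers with 0.000916% to 0.00169% of the counts, led by *Alb*, and with *Umod* at 0 in every library. The part of thermogenic adipocytes and of B and mast cells in the values below was not tested.

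Of the 10 genes, 9 had a lower fitted level in *Ebf2E165X/+* IWAT and only *Gpat3* a higher one, and none was called (edgeR, adjusted *P* under 0.05 and linear fold change above 1.5). Across the whole table that rule called 3 of 32664 genes, or 0.00918%. The adjusted *P* values of the 10 genes ran from 0.377 to 0.995 in edgeR. On the same counts limma-voom called 4 of 32664 genes and none of the 10. DESeq2 with independent filtering called *Gk* and *Agpat2* as lower, as it did 86 of 16078 genes (0.535%). Without that filtering it called *Gk* alone of the 10, and 79 of 32489 genes as lower. In edgeR an unadjusted *P* under 0.05 was reached by 5 of them, *Gpd1*, *Gk*, *Agpat2*, *Lpin1*, and *Dgat2*, all lower in *Ebf2E165X/+* libraries. In a background of 18905 genes, all of them at 10 counts or more in each of the 6 libraries and the 10 genes included, 4.21% were lower at that level and 1.86% higher. In 4 genes, *Gpd1*, *Gk*, *Agpat2*, and *Lpin1*, every *Ebf2E165X/+* library lay below every *Ebf2+/+* library, as did 6.78% of those 18905 genes. The median log2 fold change was −0.42 over the 10 genes and 0.014 over all genes tested. Without the first *Ebf2+/+* library that median was −0.28, and 3 of the 10 genes, *Gpd1*, *Gk*, and *Agpat2*, had an unadjusted *P* under 0.05 in edgeR, all lower, as did 2.24% of all genes tested in that fit, against 3.09% with all libraries. Without the first *Ebf2E165X/+* library all 10 had a lower fitted level, and 7 were below *Ebf2+/+* without overlap, as were 10.5% of all genes tested in that fit, against 5.75% with all libraries. When libraries were scaled to the adipocyte markers in place of TMM, which raised the median of all genes to 0.32, the median of the 10 genes was −0.11. In that fit 7 had a lower fitted level, none had an unadjusted *P* under 0.05 in edgeR, and none was free of overlap.

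**Figure D1:**
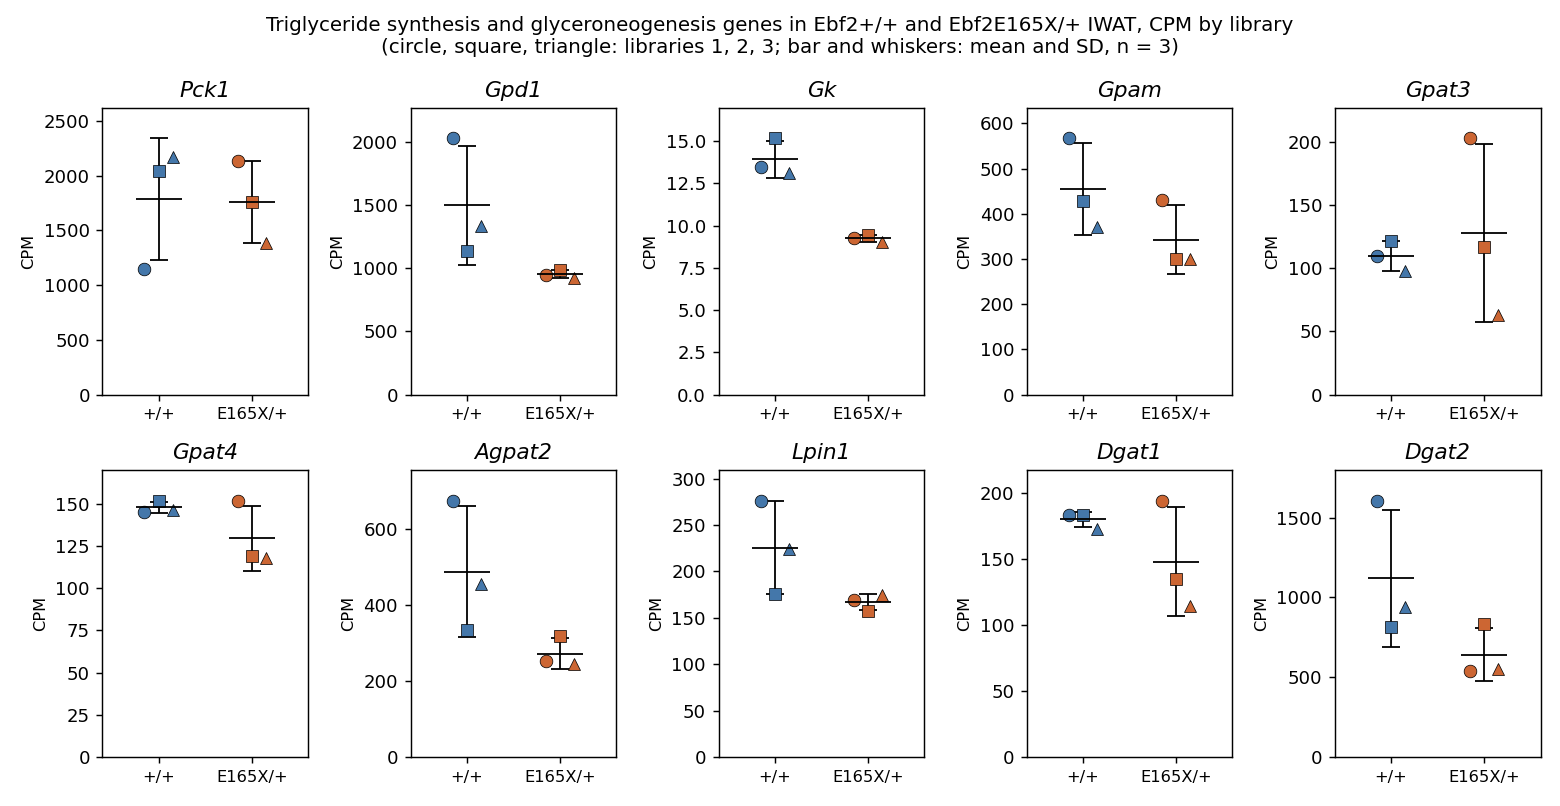
CPM of each gene (y axis, linear from 0) in the 3 Ebf2+/+ and 3 Ebf2E165X/+ libraries, with the mean and SD of each genotype. Gk separates the genotypes, with 13.1 to 15.2 CPM in Ebf2+/+ and 9.04 to 9.43 CPM in Ebf2E165X/+ libraries, whereas Pck1 and Gpat3 overlap broadly.

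Of the enzymes that supply glycerol 3-phosphate, *Gpd1* and *Gk* had no overlap between genotypes, and *Pck1* overlapped. *Pck1*, which turns oxaloacetate into phosphoenolpyruvate, is on chromosome 2 (GRCm38 chr2:173153048-173159273, plus strand). *Pck1* was at 1150, 2041, and 2167 CPM in *Ebf2+/+* and at 2135, 1756, and 1383 CPM in *Ebf2E165X/+* libraries. The lowest value and the highest both belonged to *Ebf2+/+* mice, so that the *Ebf2E165X/+* range lay within that of *Ebf2+/+*. On the log2 scale the fold change was −0.02 (SE 0.28, edgeR adjusted *P* = 0.995), and its sign changed under 7 of 16 alternative fits, which gave −0.27 to 0.27.

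*Gpd1*, the cytosolic enzyme that reduces dihydroxyacetone phosphate to glycerol 3-phosphate, is on chromosome 15 (chr15:99717515-99725005, plus strand). Its values were 2031, 1136, and 1333 CPM in *Ebf2+/+* and 947, 990, and 926 CPM in *Ebf2E165X/+* libraries. All 3 *Ebf2E165X/+* libraries lay below the lowest *Ebf2+/+* library, and they were closely grouped, with a coefficient of variation of 3.38% against 31.4%. The log2 fold change was −0.65 (SE 0.22, edgeR adjusted *P* = 0.783), −0.38 without the first *Ebf2+/+* library, and −0.34 under adipocyte scaling. DESeq2 gave an adjusted *P* of 0.0720. An antisense transcript, *Gm16537*, overlaps an exon of *Gpd1*, and whether the counting used strand is not given in the sources used here.

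*Gk*, which phosphorylates free glycerol, lies on the X chromosome (chrX:85701937-85776819, minus strand), and all 6 mice were male. Its counts were 1618, 1598, and 1626 in *Ebf2+/+* and 1069, 1178, and 1158 in *Ebf2E165X/+* mice, or 13.5, 15.2, and 13.1 CPM against 9.24, 9.43, and 9.04 CPM. The groups were apart by 3.69 CPM, more than the range within either of them. The mean in *Ebf2E165X/+* libraries was 66.4% of that in *Ebf2+/+* libraries, a log2 fold change of −0.59 (SE 0.10, edgeR adjusted *P* = 0.377). DESeq2 called it, with an adjusted *P* of 2.6e-05, in a fit that called 86 genes as lower, or 0.535% of the 16078 genes that had an adjusted *P*. The log2 fold change stayed between −0.66 and −0.54 with each library left out in turn, and was −0.28 (SE 0.23) when libraries were scaled to the adipocyte markers. *Gm14764*, an antisense transcript, overlaps *Gk*.

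The first acylation is shared by 3 genes. *Gpam*, the mitochondrial enzyme, is on chromosome 19 (chr19:55067268-55127238, minus strand) and was at 567, 428, and 371 CPM in *Ebf2+/+* and 431, 299, and 299 CPM in *Ebf2E165X/+* libraries. The first *Ebf2E165X/+* library exceeded both lower *Ebf2+/+* libraries, and both others lay below the whole *Ebf2+/+* range. Its log2 fold change was −0.41 (SE 0.21, edgeR adjusted *P* = 0.783), −0.23 without the first *Ebf2+/+* library, and −0.11 under adipocyte scaling.

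*Gpat3*, an enzyme of the endoplasmic reticulum that is induced as adipocytes differentiate, is on chromosome 5 (chr5:100845713-100899102, plus strand). It was at 110, 122, and 98.1 CPM in *Ebf2+/+* and 203, 117, and 63.2 CPM in *Ebf2E165X/+* libraries. The *Ebf2E165X/+* libraries thus spanned both the highest and the lowest value of the 6, with a coefficient of variation of 55.2% against 10.9%. The log2 fold change of 0.22 (SE 0.36, edgeR adjusted *P* = 0.887) rested on the first *Ebf2E165X/+* library and was −0.29 without it. *4930458D05Rik*, on the opposite strand, shares 585 bases with an exon of *Gpat3*, and *Gm42987*, on the same strand, shares 94.

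*Gpat4*, its close relative in the same compartment, is on chromosome 8 (chr8:23171265-23208346, minus strand). Values were 145, 152, and 147 CPM in *Ebf2+/+* and 152, 119, and 118 CPM in *Ebf2E165X/+* libraries. The *Ebf2+/+* libraries were nearly level, and 2 of the 3 *Ebf2E165X/+* libraries were below them. Its log2 fold change was −0.19 (SE 0.11, edgeR adjusted *P* = 0.783), −0.32 without the first and −0.13 without the third *Ebf2E165X/+* library, and 0.11 under adipocyte scaling.

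*Agpat2* had the largest fitted change of the 10 with all libraries, while *Gk* had it without the first *Ebf2+/+* library and *Dgat2* without the third *Ebf2+/+* library, the second *Ebf2E165X/+* library, or the third library of each genotype. It encodes the acyltransferase that makes phosphatidic acid, and loss of the human gene causes congenital generalized lipodystrophy. It lies on chromosome 2 (chr2:26593057-26604417, minus strand) and was at 676, 335, and 455 CPM in *Ebf2+/+* and 254, 318, and 245 CPM in *Ebf2E165X/+* libraries. No *Ebf2E165X/+* library reached the lowest *Ebf2+/+* library, although that gap, 16.5 CPM, was small against the spread within *Ebf2+/+*. The log2 fold change was −0.84 (SE 0.25, edgeR adjusted *P* = 0.783), and −0.55 without the first *Ebf2+/+* library and likewise −0.55 under adipocyte scaling. DESeq2 called *Agpat2* with independent filtering (adjusted *P* = 0.0275) and not without it (0.0527). An exon of *Agpat2* shares 64 bases with *Egfl7* on the opposite strand.

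The libraries in which *Agpat2* was high or low were compared with those of all 18905 background genes, using the root mean square distance of centred log2 CPM over the 6 libraries. The nearest were *A530016L24Rik* (0.0889), *Pygl*, the glycogen phosphorylase of liver type (0.10), and *Gm11992* (0.103). *Pygl* was at 442, 232, and 268 CPM in *Ebf2+/+* and 187, 220, and 169 CPM in *Ebf2E165X/+* libraries. Among the 10 genes, *Agpat2* was nearest to *Dgat2* (0.117) and *Gpd1* to *Agpat2* (0.145).

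*Lpin1* encodes the phosphatidic acid phosphatase whose loss leaves mice without normal fat. It is on chromosome 12 (chr12:16535669-16610966, minus strand) and was at 276, 176, and 225 CPM in *Ebf2+/+* and 169, 158, and 175 CPM in *Ebf2E165X/+* libraries. The genotypes were separated by only 1.31 CPM, between the second *Ebf2+/+* and the third *Ebf2E165X/+* library. Fitted across all libraries, the log2 fold change was −0.43 (SE 0.16, edgeR adjusted *P* = 0.783), −0.27 without the first *Ebf2+/+* library, and −0.12 under adipocyte scaling.

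The last acylation is shared by a pair of unrelated enzymes. *Dgat1*, which also esterifies other acceptors, is on chromosome 15 (chr15:76502015-76511953, minus strand) and was at 184, 183, and 173 CPM in *Ebf2+/+* and 194, 135, and 115 CPM in *Ebf2E165X/+* libraries. As with *Gpat4*, the first *Ebf2E165X/+* library was at or above the *Ebf2+/+* level and both others were below it. *Dgat1* had a log2 fold change of −0.28 (SE 0.18, edgeR adjusted *P* = 0.783), which was −0.53 without the first and −0.13 without the third *Ebf2E165X/+* library, and −0.01 under adipocyte scaling.

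*Dgat2*, the enzyme linked to newly made fatty acids and to lipid droplet growth, is on chromosome 7 (chr7:99153658-99182719, minus strand). It was at 1605, 813, and 936 CPM in *Ebf2+/+* and 539, 831, and 549 CPM in *Ebf2E165X/+* libraries. A single *Ebf2E165X/+* library, the second, overlapped the *Ebf2+/+* range, by 18.2 CPM. The log2 fold change of −0.81 (SE 0.29, edgeR adjusted *P* = 0.783) was −0.47 without the first *Ebf2+/+* library and −0.51 under adipocyte scaling.

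**Figure D2:**
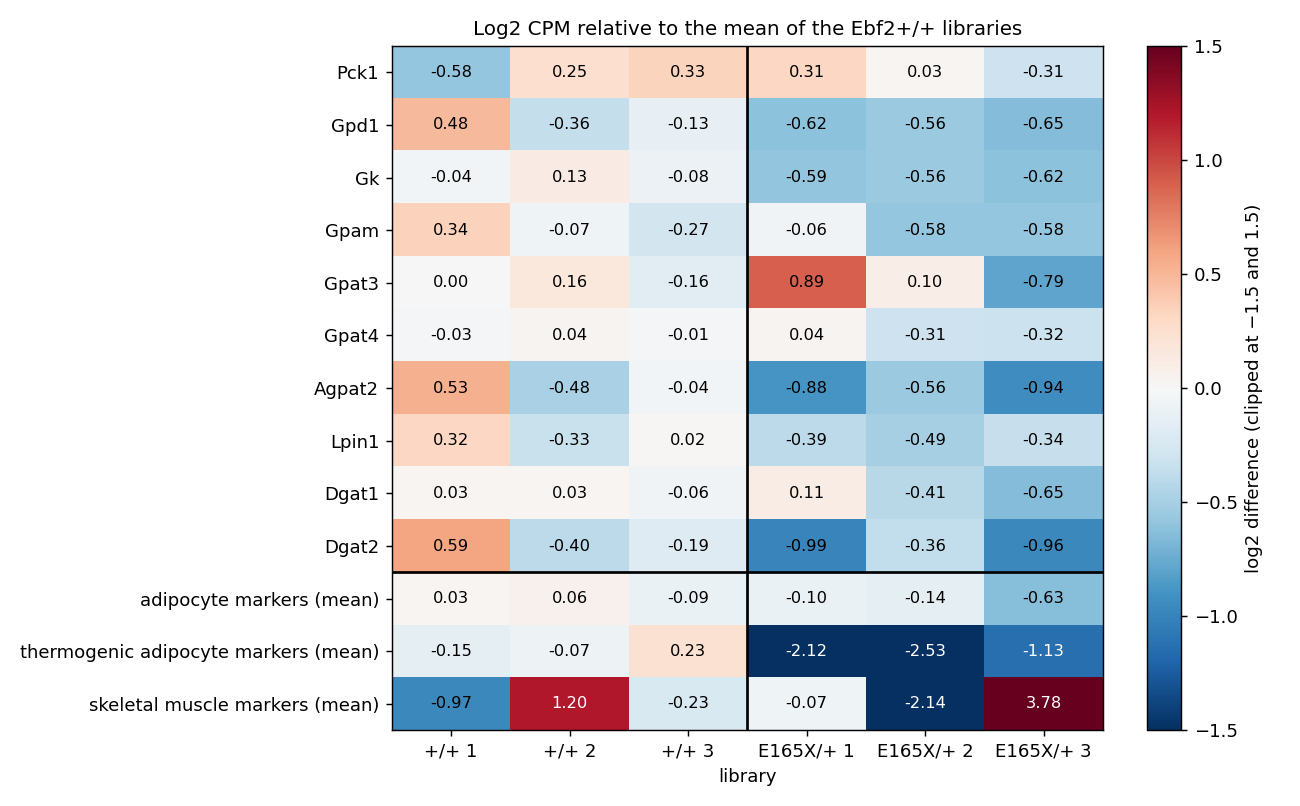
Log2 CPM of each gene in each library relative to the mean of the 3 Ebf2+/+ libraries, above the mean of 3 marker lists on the same scale. Gpd1, Agpat2, Lpin1, and Dgat2 are highest in the first Ebf2+/+ library, Gpat3, Gpat4, and Dgat1 in the first Ebf2E165X/+ library, and the skeletal muscle markers stand at 3.78 in the third Ebf2E165X/+ library.

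The 10 genes fell into unlike patterns across the libraries. *Gpd1*, *Gpam*, *Agpat2*, *Lpin1*, and *Dgat2* were highest in the first *Ebf2+/+* library, which had the lowest *Pck1* value. *Gpat3*, *Gpat4*, and *Dgat1* were highest in the first *Ebf2E165X/+* library, for *Gpat4* nearly level with the second *Ebf2+/+* library, and *Gpat4* and *Dgat1* were each other's nearest gene among the 10 (0.133). The third *Ebf2E165X/+* library, which carried the muscle RNA, was the lowest of all 6 for 7 of the genes. The mean over the 10 genes of log2 CPM relative to *Ebf2+/+* was −0.22, −0.37, and −0.62 in the *Ebf2E165X/+* libraries, where the adipocyte markers were at −0.10, −0.14, and −0.63. Without the third *Ebf2E165X/+* library the median log2 fold change of the 10 genes was −0.39, 4 genes were lower at an unadjusted *P* under 0.05 (edgeR), as were 3.54% of all genes tested in that fit. *Gpat3* was higher at that level, as were 1.78% of all genes tested, with a log2 fold change of 0.54. The share of the difference that goes with the adipocyte content of that library was not tested.

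**Figure D3:**
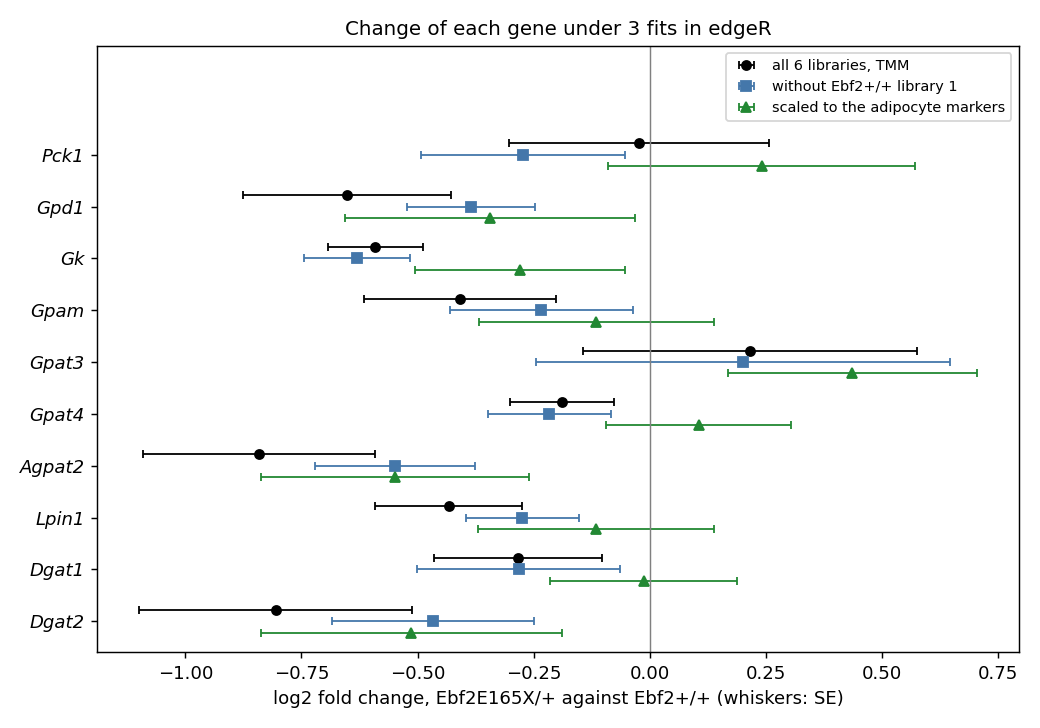
Log2 fold change of each gene with its SE from edgeR, with all 6 libraries, without the first Ebf2+/+ library, and with libraries scaled to the adipocyte markers. Agpat2 goes from −0.84 to −0.55 and Dgat2 from −0.81 to −0.47 without that library, while Gk goes from −0.59 to −0.63.

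Levels were compared between genes per kb of annotated exon, as the mean CPM per kb over all 6 libraries. The labels and the study's methods name different library kits, of which one reads only 3′ ends, and for such libraries division by length would not apply. On this scale *Pck1* was the highest at 517, followed by *Gpd1* at 414, *Dgat2* at 285, and *Agpat2* at 179. *Gpam* (59.9), *Dgat1* (53.7), *Gpat3* (34.0), *Gpat4* (20.8), and *Lpin1* (20.3) were lower. *Gk* was the lowest at 1.5, so that the 10 genes covered a 346-fold range.

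Within each step the share of each isoenzyme was computed from CPM per kb of exon. *Gpam* held 55.7% ± 5.13 of the first acylation in *Ebf2+/+* and 48.9% ± 5.93 in *Ebf2E165X/+* libraries (SD, n = 3), with *Gpat3* at 25.96% ± 3.01 and 32.4% ± 8.99. The genotypes overlapped for both (exact permutation test, *P* = 0.3 and 0.4, adjusted over 18 shares 0.54 and 0.6). *Agpat2* held 79.8% ± 4.88 and 72.1% ± 3.60 of the 5 AGPAT genes (exact permutation test, *P* = 0.2, adjusted 0.4), and *Dgat2* held 85.1% ± 4.16 and 80.6% ± 6.52 of the DGAT pair (*P* = 0.5, adjusted 0.643 in the same exact test). *Lpin1* held 86.5%, 81.6%, and 82.0% of the lipins in *Ebf2+/+* and 79.2%, 78.7%, and 79.7% in *Ebf2E165X/+* libraries. These did not overlap, at the smallest *P* of the exact permutation test, 0.1 (adjusted 0.36), as in 5 of the 18 shares tested, the others being *Lpin3*, *Agpat4*, *Agpat5*, and *Gpd1l*. Shares within a step depend on each other, so that these are not separate results. *Lpin3* and *Gpd1l* themselves had log2 fold changes of −0.08 (SE 0.15) and −0.0019 (SE 0.062).

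**Figure D4:**
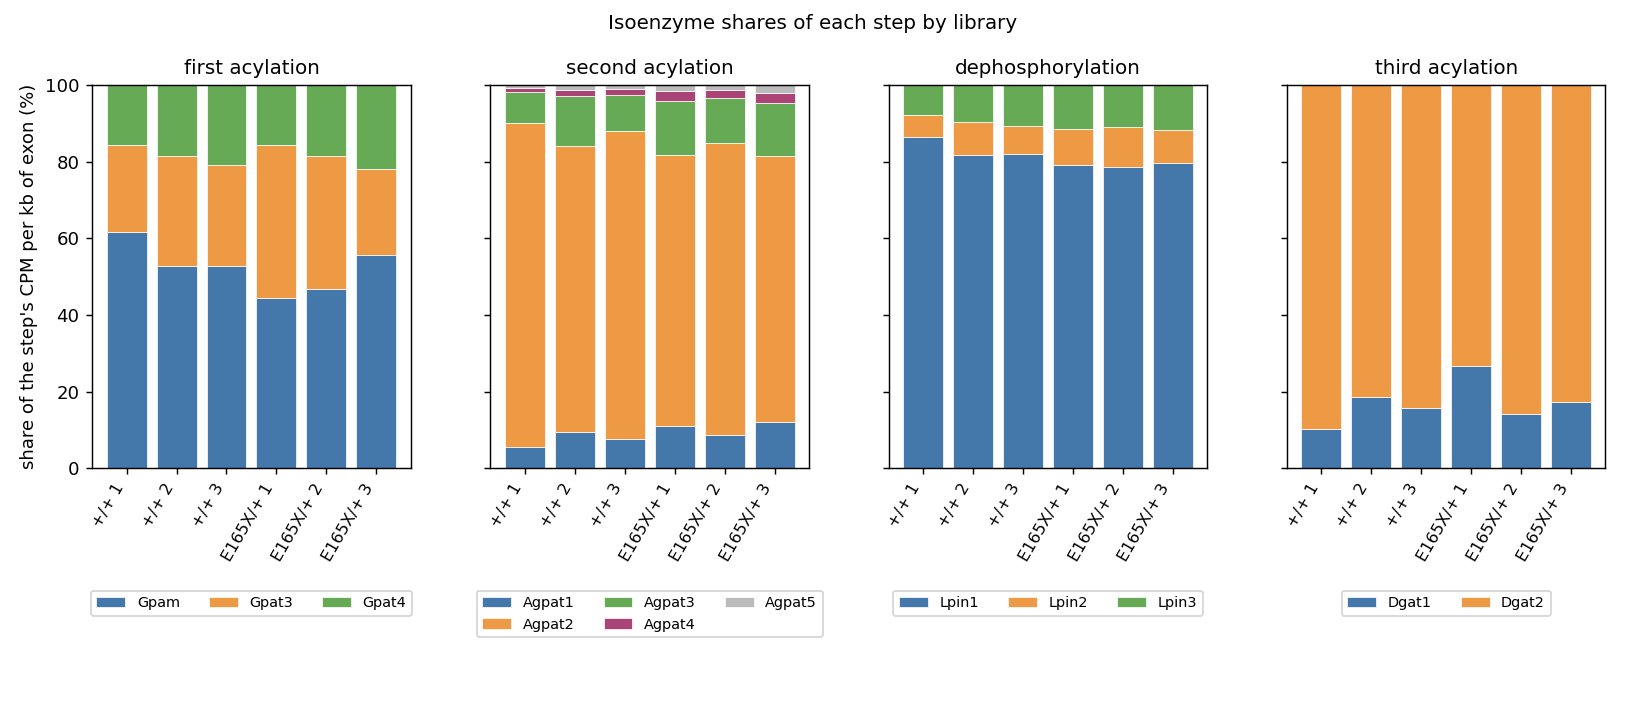
Share of each isoenzyme (percent of the step's summed CPM per kb of exon) in each library, for the 3 acylations and the dephosphorylation. Dgat2, Agpat2, and Lpin1 hold most of their steps in all 6 libraries, and Gpat3 reaches its largest share, 39.9%, in the first Ebf2E165X/+ library.

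The relatives of these genes and the rest of the pathway were followed in 4 lists with 51 genes, of which 50 had counts. The lists hold paralogues, the glyceroneogenesis route with glycerol channels, branches to other lipids, and regulators. None of the genes was called in edgeR, and 11 had an unadjusted *P* under 0.05, of which 10 were lower in *Ebf2E165X/+* libraries, against the background of 4.21% and 1.86% given above. Without the first *Ebf2+/+* library 0 paralogues, 1 route gene, 1 branch gene, and 2 regulators were lower at that level, and none was higher. Of all genes tested in that fit, 2.24% were lower at it. Under adipocyte scaling none was lower at it, and 2 route genes and 2 branch genes were higher, beside 182 lower and 2292 higher of all 32664.

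Among 13 paralogues with counts, 9 had a lower and 4 a higher fitted level, with a median log2 fold change of −0.10. Under adipocyte scaling 2 had a lower and 11 a higher one, with a median of 0.19, where the median of all genes was 0.32. Those with an unadjusted *P* under 0.05 with all libraries and TMM were *Gpd2*, the mitochondrial glycerol 3-phosphate dehydrogenase (−0.65, SE 0.21), and *Agpat3*, an acyltransferase of phospholipid synthesis (−0.27, SE 0.095), both with an edgeR adjusted *P* of 0.783. Without the first *Ebf2+/+* library they were at −0.49 and −0.21, and under adipocyte scaling at −0.28 and 0.05. Neither reached that level in those 2 fits. *Gpd2* was at 208, 145, and 153 CPM in *Ebf2+/+* and 84.8, 98.1, and 140 CPM in *Ebf2E165X/+* libraries. The genotypes did not overlap, and its highest *Ebf2E165X/+* value was that of the library with muscle RNA. Next by *P* was *Mogat2*, at under 1 CPM in every library. *Lpin2*, the lipin of liver, had a log2 fold change of 0.09 (SE 0.077) and *Gpd1l* one of −0.0019 (SE 0.062), beside the lower values of *Lpin1* and *Gpd1*.

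The glyceroneogenesis route and glycerol channels, 13 genes, had a median log2 fold change of −0.04, with a lower fitted level in 7 and a higher one in 6. Without the third *Ebf2E165X/+* library, the one with muscle RNA, the median was −0.36, with 11 lower and 2 higher. Under adipocyte scaling it was 0.22, with 3 lower and 10 higher, where the median of all genes was 0.32. *Pcx*, the pyruvate carboxylase that makes oxaloacetate for *Pck1*, was at 1665, 979, and 1045 CPM in *Ebf2+/+* and 838, 907, and 599 CPM in *Ebf2E165X/+* libraries. All *Ebf2E165X/+* values lay below those of *Ebf2+/+* (log2 fold change −0.65, SE 0.25, edgeR adjusted *P* = 0.783). The log2 fold change was −0.38 under adipocyte scaling and −0.39 without the first *Ebf2+/+* library. *Pgam1*, a phosphoglycerate mutase, also had no overlap (−0.43, SE 0.15), at the same adjusted *P*, and was at −0.28 without that library and −0.13 under adipocyte scaling. *Eno1*, an enolase and the third of that list by *P*, did not reach the unadjusted level, at −0.44 (SE 0.20), overlapped between genotypes, and was at −0.22 without the first *Ebf2+/+* library. *Got1*, *Got2*, *Gapdh*, *Tpi1*, and *Pgk1* were highest in the third *Ebf2E165X/+* library. *Got1*, for example, was at 89.4 CPM there and at 14.0 to 24.0 CPM in the other libraries, and its log2 fold change was 1.08 (SE 0.67) with and −0.30 without that library. The signs of *Got2* (0.56 and −0.13), *Gapdh* (0.40 and −0.44), *Tpi1* (0.42 and −0.21), and *Pgk1* (0.31 and −0.37) also differed between these fits. The glycerol channel of adipocytes, *Aqp7*, had a log2 fold change of −0.23 (SE 0.12), and −0.10 without the third *Ebf2E165X/+* library.

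The branches that lead from phosphatidic acid and diacylglycerol to phospholipids and signalling lipids held genes that lay in both directions. Of 13 genes, 6 had a lower and 7 a higher fitted level, with a median log2 fold change of 0.011. Under adipocyte scaling 11 had a higher one, with a median of 0.31. *Cds1*, which makes CDP-diacylglycerol, had a log2 fold change of −0.35 (SE 0.12), and *Dgkz*, a diacylglycerol kinase, one of 0.20 (SE 0.079), each without overlap and with an edgeR adjusted *P* of 0.783. Without the first *Ebf2+/+* library they were at −0.30 and 0.14. Under adipocyte scaling they were at −0.04 and 0.51, where the median of all genes was 0.32. With all libraries and TMM scaling, *Dgkz* was the only listed pathway gene with an unadjusted *P* under 0.05 in edgeR that was higher in *Ebf2E165X/+* libraries. *Chpt1*, a cholinephosphotransferase that draws on diacylglycerol, was the third by *P*, at −0.42 (SE 0.18), also without overlap.

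Of 11 regulators of the pathway, 9 had a lower fitted level, with a median log2 fold change of −0.36. Under adipocyte scaling 6 of 11 had a lower fitted level, the median was −0.08, and none had an unadjusted *P* under 0.05 in edgeR. Without that scaling an unadjusted *P* under 0.05 was reached by 5, all lower and all with an edgeR adjusted *P* of 0.783. Without the first *Ebf2+/+* library 2 reached it, and without the third *Ebf2E165X/+* library 3 did, all lower. Of all genes tested in those fits, 2.24% and 3.54% were lower at that level. *Mlxipl*, which encodes the carbohydrate response factor ChREBP, was at 149, 88.4, and 123 CPM in *Ebf2+/+* and 53.4, 84.3, and 82.5 CPM in *Ebf2E165X/+* libraries (log2 fold change −0.71, SE 0.23). *Srebf1*, the sterol regulatory element binding factor of fatty acid synthesis, was at 423, 278, and 320 against 270, 277, and 197 CPM (−0.46, SE 0.19, and −0.28 without the first *Ebf2+/+* library). Neither gene overlapped between genotypes, although for *Srebf1* the nearest libraries were nearly equal.

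*Bscl2*, which encodes the lipid droplet protein seipin and like *AGPAT2* is a gene of congenital generalized lipodystrophy, had a log2 fold change of −0.36 (SE 0.14) without overlap. *Insig1*, a sterol-sensing regulator of SREBP processing, had one of −0.82 (SE 0.25). Of the listed pathway genes DESeq2 called it alone, with independent filtering (adjusted *P* = 0.0413) and not without it (0.0789). *Pdk4*, the pyruvate dehydrogenase kinase that spares pyruvate, had a log2 fold change of −1.17 (SE 0.49). This was −0.73 without the third *Ebf2+/+* and −1.67 without the third *Ebf2E165X/+* library. Its values were 134, 323, and 486 CPM in *Ebf2+/+* and 98.7, 98.4, and 223 CPM in *Ebf2E165X/+* libraries. Both *Insig1* and *Pdk4* overlapped between genotypes. *Pparg*, the nuclear receptor that drives adipocyte genes including *Pck1*, was at 146, 169, and 139 against 165.2, 98.2, and 74.9 CPM. As for *Gpat3*, *Gpat4*, and *Dgat1*, the first *Ebf2E165X/+* library was the high one of its genotype. The log2 fold change of *Pparg* was −0.42 (SE 0.26, edgeR adjusted *P* = 0.783), −0.81 without the first and −0.20 without the third *Ebf2E165X/+* library, and −0.17 under adipocyte scaling.

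**Figure D5:**
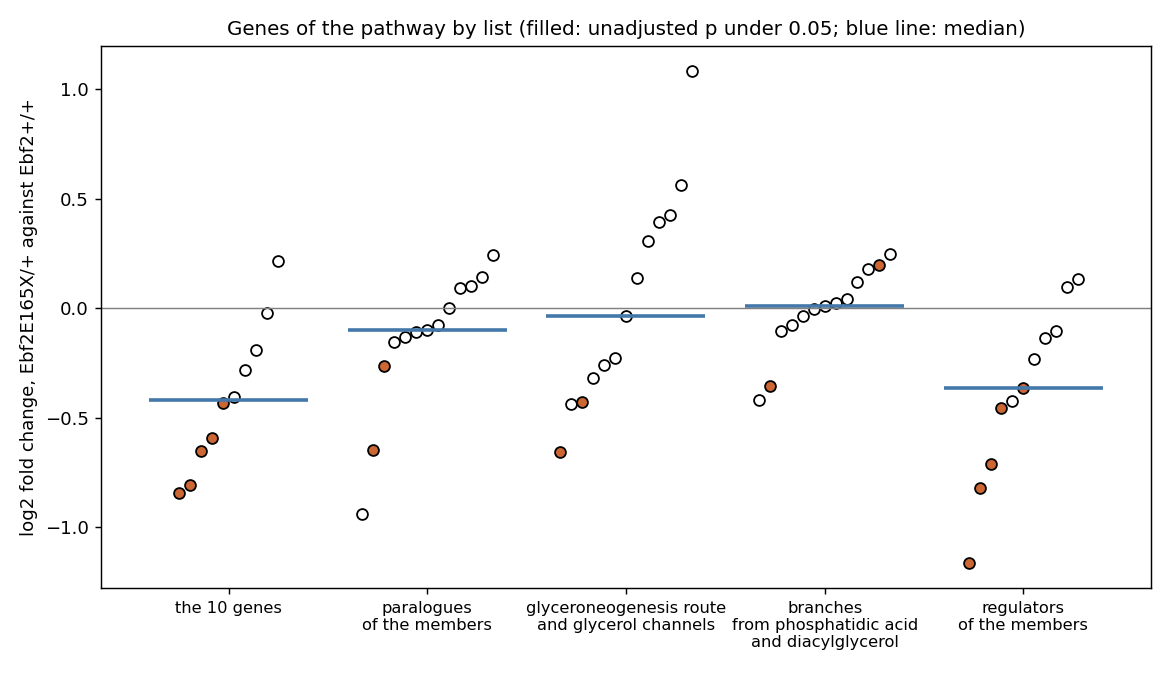
Log2 fold change (Ebf2E165X/+ against Ebf2+/+) of the 10 genes and of 4 lists of related genes, 1 point per gene, with filled points for an unadjusted P under 0.05 and a line at each median. The medians are −0.42 for the 10 genes, −0.10 for their paralogues, −0.04 for the route, 0.011 for the branches, and −0.36 for the regulators. Without the third Ebf2E165X/+ library, which carried muscle RNA, that of the route is −0.36 and that of the 10 genes −0.39. Under adipocyte scaling they are, in the order above, −0.11, 0.19, 0.22, 0.31, and −0.08.

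Promoters from RefSeq (GRCm38.p6) were matched for 6 of the 10 genes, *Pck1*, *Gk*, *Gpam*, *Gpat3*, *Agpat2*, and *Lpin1*, with 7 promoters because *Gpam* has a pair. The 250 bases before each start were searched on both strands. The core letters of the EBF motif, CCCNNGGG, were in none of the 7 promoters and in 11.8% of all 32851 promoters. The core site of nuclear receptors, AGGTCA, was before *Gpam* and *Lpin1* (14.0% of all promoters), and a direct repeat of it with 1 base between, the arrangement bound by PPARγ, was before none of them (0.0335%). A core of the cAMP response element, ACGTCA, was before *Gpam*, *Gpat3*, and *Pck1* (6.47%), and the E-box CACGTG was before *Gk* (6.02%). A match describes letters in this window only, and the searched letters can overlap each other. A stretch is shown for 3 genes that stand for unlike results, *Gk* and *Lpin1* without overlap between genotypes and *Pck1* with overlap, with the matched letters in capitals.
Gk: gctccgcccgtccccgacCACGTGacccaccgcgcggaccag
Lpin1: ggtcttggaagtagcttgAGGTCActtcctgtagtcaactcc
Pck1: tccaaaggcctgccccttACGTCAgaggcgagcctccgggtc

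They lie at chrX:85776854-85776895 (minus strand), chr12:16611017-16611058 (minus strand), and chr2:173152964-173153005 (plus strand), outside the exons of GENCODE M21.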

How the data were processed

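The authors deposited expected counts, estimates of sequenced fragments per gene, as 1 table of 55491 genes and 6 libraries without scaling. All values were whole numbers, so that rounding changed none. The submitters' processing notes name cutadapt 4.8, STAR 2.7.8a, RSEM 1.3.3, and GRCm38. Sample labels name an NEB library kit, whereas the study's methods name a 3′ mRNA kit. Genotype and replicate number were taken from the sample titles, and nothing says whether the libraries of a genotype differ in litter.

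The quasi-likelihood test of edgeR 4.0.16 (R 4.3.3) compared genotypes after TMM scaling, over the 32664 genes that had a count in some library, with Benjamini-Hochberg adjustment over all of them. CPM use TMM-scaled library sizes, with a prior count of 2 on log scales. Log2 fold changes are those of *Ebf2E165X/+* against *Ebf2+/+*. For marker and isoenzyme shares the exact permutation tests were two-sided, and the tests cover the spread between libraries only. Depth above 106820505 counts makes counting error small for the 10 genes. Alternatives were DESeq2 1.42.0, limma-voom (limma 3.58.1), other filters and scalings, a replicate block, and each library left out. Exon lengths and coordinates came from GENCODE M21 (55227 identifiers matched).

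The 10 genes, the lists, and the marker genes were chosen with earlier results of these data known. Named were all 10 genes, from each pathway list every gene with an unadjusted *P* under 0.05, or the 3 of smallest *P* where fewer, and the genes nearest to the one with the largest change. *Lpin2*, *Lpin3*, *Agpat4*, *Agpat5*, *Gpd1l*, *Got1*, *Got2*, *Gapdh*, *Tpi1*, *Pgk1*, *Aqp7*, and *Pparg* were named after their values were seen.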

Additional observations from a re-analysis of the deposited data

How the results depend on the processing

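The number of genes called in the whole table was 3 in edgeR, 98 in DESeq2 with and 92 without independent filtering, 9 without the third library of each genotype, 5 with libraries scaled to the adipocyte markers, and 1 to 11 with each library left out. Of the 10 genes, DESeq2 called 2 with filtering (*Gk* and *Agpat2*) and 1 without it (*Gk*), edgeR and limma-voom none, and DESeq2 with filtering called 1 pathway gene. The count with an unadjusted *P* under 0.05, 5 in edgeR, was 3 to 6 with each library left out, 3 being without the first *Ebf2+/+* library, and 0 under adipocyte scaling. The count without overlap, 4, was 4 to 7 with each library left out, 7 being without the first *Ebf2E165X/+* library, and 0 under adipocyte scaling, while the share of all genes lower without overlap was 5.75% with all libraries, 9.46% to 12% with each left out, and 1.17% under that scaling. The median log2 fold change was −0.56 to −0.28 with each library left out and −0.11 under adipocyte scaling, where the cause was not tested. *Pck1* changed sign with limma-voom (0.0090), the replicate block (0.0040), without the second (0.07) or the third *Ebf2+/+* library (0.12), without the third *Ebf2E165X/+* library (0.12), without the third library of each genotype (0.27), and under adipocyte scaling (0.24), and ran from −0.27 to 0.12 with each library left out. *Gpat3* did so without the first *Ebf2E165X/+* library (−0.29, the range being −0.29 to 0.54) and *Gpat4* under adipocyte scaling (0.11). The hepatocyte and kidney list, with *Umod* at 0 in all libraries, was lower as a share of counts and higher by 0.35 as a mean of log2 CPM. Deviations of same-numbered libraries from their genotype means had correlations of 0.15, −0.28, and −0.16, against −0.32 to 0.39 for unlike numbers. With 3 libraries per genotype these values cannot show whether same-numbered libraries share a litter or batch. With the replicate block 2 genes were called in all, none of the 10, and 5 of the 10 had an unadjusted *P* under 0.05 in edgeR. Medians of the pathway lists under left-out libraries and adipocyte scaling were added after the data were seen, and under that scaling were 0.19 for the paralogues, 0.22 for the route, 0.31 for the branches, and −0.08 for the regulators, where the median of all genes was 0.32. The lowest count of any of the 10 genes in a library was 1069, so that counting error is small for them.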
